A study of Mus musculus with 39 samples.

Results

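Hearts of female FVB/NJ mice, an inbred laboratory strain, were compared between 7 to 8 weeks and 6 weeks of age by small RNA sequencing. Members were chosen by sex and age in the sample titles, which gave 11 of the 39 libraries of the series: 6 from females of 6 weeks, 3 from females of 7 weeks and 2 from females of 8 weeks. All were wild type, and the labels name no treatment. The protocol speaks of frozen ventricular apexes while the tissue tag names the whole heart, so how much atrium, valve or vessel each sample held is not known. Nothing in the labels says that each library came from its own animal, and p-values therefore measure the spread between these samples, which may be technical. Males of the same ages, 12 of 6 weeks and 5 of 7 or 8 weeks, served only to test whether the change differed between the sexes.

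MicroRNAs are short RNAs cut from hairpin precursors that lower the output of messenger RNAs by pairing with them through the seed, bases 2 to 8 of the mature strand. A hairpin can yield an arm from its 5′ side (5p) and from its 3′ side (3p). Some mature sequences are encoded by more than 1 hairpin gene, so that a read does not tell which locus made it. In the heart, miR-1, miR-133, miR-208 and miR-499 are made by muscle cells, miR-126 by endothelium, miR-143 and miR-145 by vascular smooth muscle, and miR-451a and miR-486 are abundant in red blood cells. Around weaning and puberty the mouse heart goes on growing and has largely replaced the fetal myosin Myh7 by the adult Myh6.

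Mature sequences on which the results turn are given 5′ to 3′ from RefSeq (GRCm38.p6), with the seed in capitals. The first 3 are shown because each is encoded at several loci, at which the differences were unequal:
miR-30c-5p: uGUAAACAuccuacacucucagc
miR-16-5p: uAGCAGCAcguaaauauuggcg
let-7a-5p: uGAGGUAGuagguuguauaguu
The myosin gene miRNAs are shown because their seeds are shared or nearly so:
miR-208a-3p: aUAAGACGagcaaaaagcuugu
miR-208b-3p: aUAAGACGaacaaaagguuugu
miR-499-5p: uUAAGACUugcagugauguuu
Members of the miR-29 family share 1 seed and come from clusters on chromosomes 6 and 1:
miR-29a-3p: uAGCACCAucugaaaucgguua
miR-29b-3p: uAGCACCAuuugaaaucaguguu
miR-29c-3p: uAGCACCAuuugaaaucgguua
The miR-146 pair shares 1 seed, is encoded on different chromosomes and had the same division between libraries:
miR-146a-5p: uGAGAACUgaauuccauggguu
miR-146b-5p: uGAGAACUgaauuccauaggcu

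The deposited values were raw counts per arm. Total counts ran from 6842104 to 11255280 in 10 of the libraries and were 1788245 in female_8wk replicate 2. A count of 0 allows up to 0.438 CPM (the count scaled by the total of the library) in the former and 1.68 CPM in the latter, counting error only. In make-up, 3 libraries stood apart. In female_8wk replicate 2, the red blood cell list took 40.5% of counts (95% Wilson interval 40.4 to 40.6), against 4.85% to 12.7% in the other 10. Of all counts of this library, miR-486b-5p alone took 22.5%, and miR-486a-5p was also high. The arm miR-451a-5p of the same list was not high there, so the share follows miR-486 and not the whole list. In female_6wk replicate 1, miR-143-3p took 43.6% (43.5 to 43.6), and miR-378a-3p took 46.4% (46.3 to 46.4) in female_7wk replicate 2. The heart muscle list took 5.65% to 16.2% of counts over the 11 libraries, and miR-208a-3p, which is made in heart muscle, was present in every one at 167 to 1339.6 CPM. In bulk tissue, fewer cells of a type and less RNA per cell cannot be told apart.

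**Figure D1:**
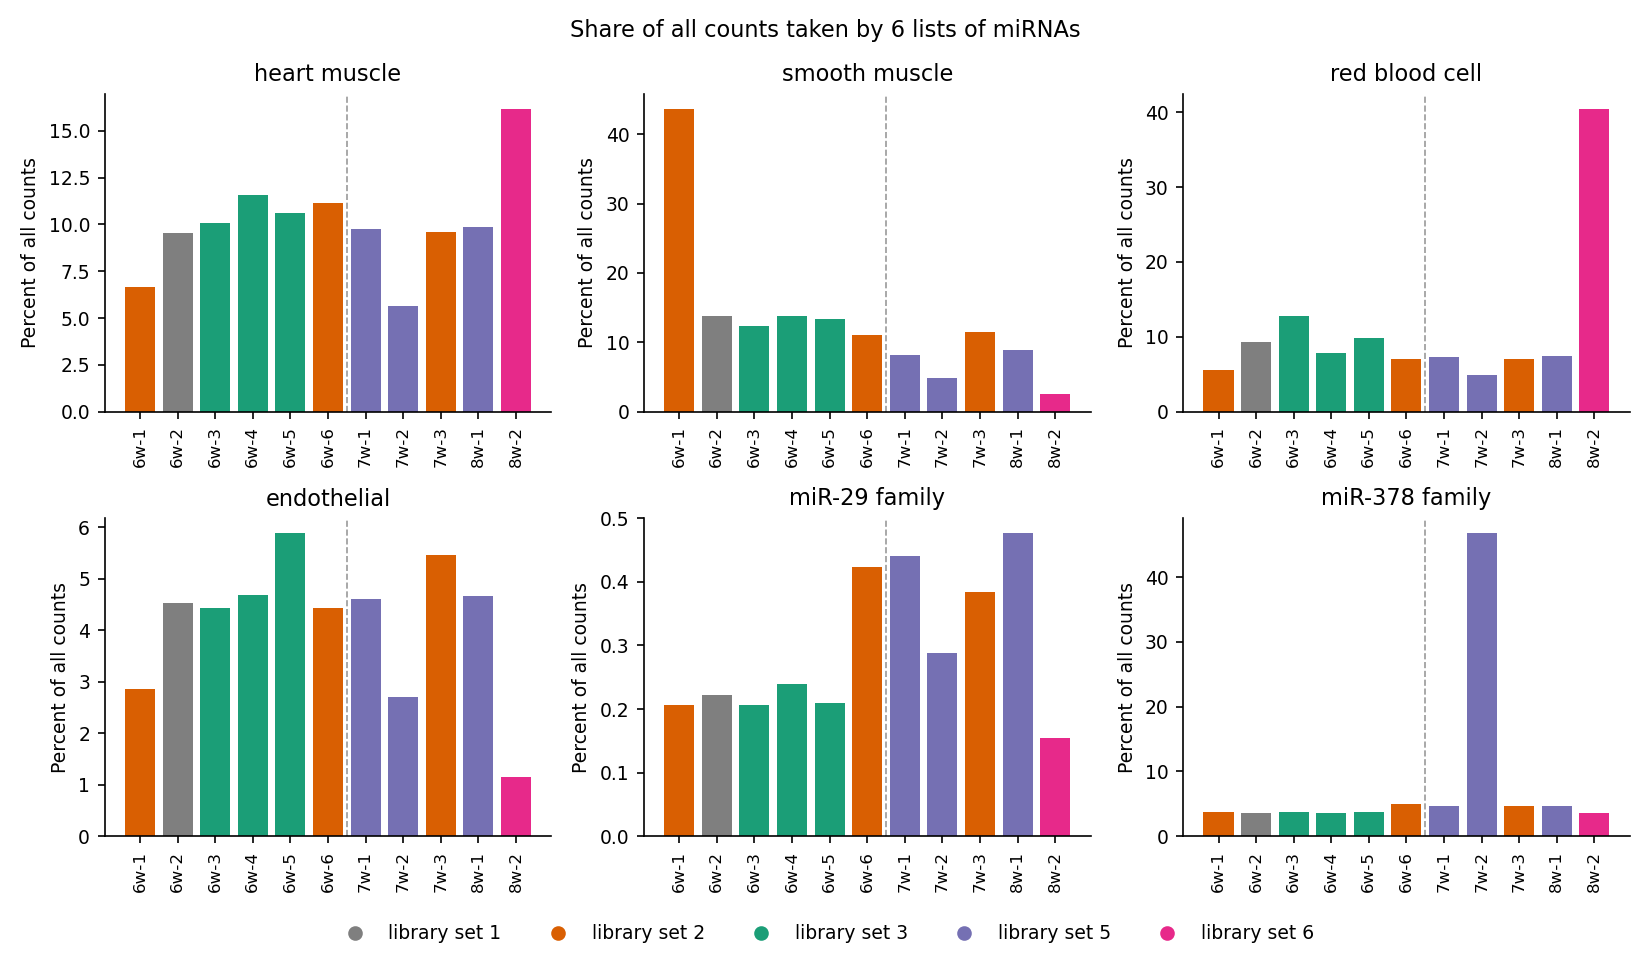
Percent of all counts taken by 6 lists of miRNAs (vertical axis) in each library (horizontal axis, week and replicate; the dashed line divides 6 weeks from 7 and 8 weeks). Bars are single libraries, coloured by the library sets described in the text. The red blood cell list took 40.5% in female_8wk replicate 2, smooth muscle miRNAs 43.7% in female_6wk replicate 1, and the miR-378 family 46.8% in female_7wk replicate 2. In female_8wk replicate 2, miR-486b-5p alone took 22.5% of all counts.

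Libraries also differed in how the counts of a sequence made at 2 loci were divided between these loci. Of the counts of miR-30c-5p, the miR-30c-1 locus received 5.45% to 8.83% in the 6-week libraries. It received 30.4%, 30.1% and 30.4% in female_7wk replicates 1 and 2 and female_8wk replicate 1, but 5.93% in female_7wk replicate 3 and 11.7% in female_8wk replicate 2. The let-7a-1 locus showed the same division: 33.3%, 32.6% and 33.5% of let-7a-5p in those 3 older libraries, and 19.7% in female_7wk replicate 3, which lay beside 20% and 19.9% in female_6wk replicates 1 and 6. Clustering of such shares over 15 sequences placed the 39 libraries in 7 sets. The number of sets was a setting of the clustering and not a result of it, and other numbers were not tried. Set 2 held female_6wk replicates 1 and 6 with female_7wk replicate 3, set 3 held female_6wk replicates 3, 4 and 5, set 1 held female_6wk replicate 2, set 5 held female_7wk replicates 1 and 2 with female_8wk replicate 1, and set 6 held female_8wk replicate 2. Among these 11, only set 2 held both ages, so for the other 8 libraries age and set cannot be told apart. The sets are drawn from the counts, the labels name no batch, and how the authors assigned reads that match several loci is not given in the sources used here.

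**Figure D2:**
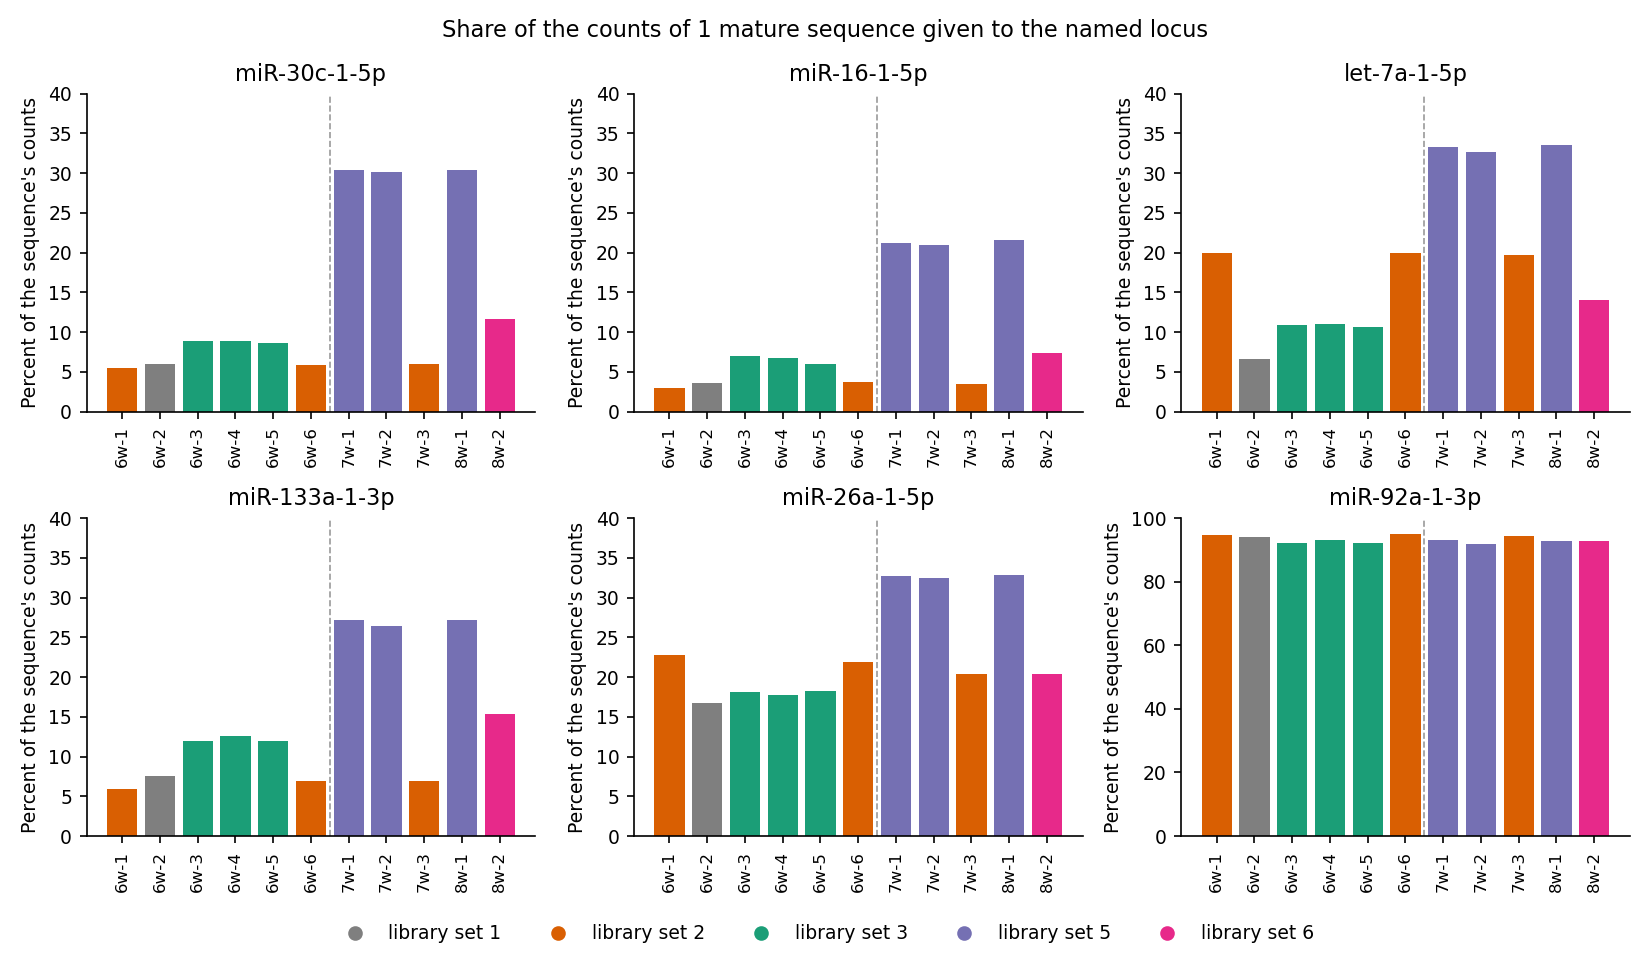
Share of the counts of 1 mature sequence that was given to the named locus (percent, vertical axis) in each library (horizontal axis, week and replicate; the dashed line divides the ages). Bars are single libraries coloured by set; the panel of miR-92a-1-3p has its own scale. The 3 libraries of set 5 stand at 30.1% to 30.4% for miR-30c-1-5p, while every other library is at 11.7% or lower.

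With all 11 libraries, no arm passed the test. The quasi-likelihood test of edgeR called 0 of 325 arms (0%) at an adjusted p under 0.05; the smallest adjusted p was 0.0769, and 84 arms (25.8%) had an unadjusted p under 0.05, of which 53 were higher and 31 lower at 7 to 8 weeks. On the same counts limma-voom called 0 and DESeq2 called 66, 40 of them higher. Without female_8wk replicate 2, edgeR called 59 of 320 arms (18.4%): 32 higher (10%) and 27 lower (8.44%). The count also rested on other libraries, being 26 without female_6wk replicate 1, 24 without female_6wk replicate 6 and 12 without female_7wk replicate 3; without any 1 of the other 7 libraries it was 0. Over all 11 libraries, the lowest value at 7 to 8 weeks exceeded the highest at 6 weeks for 1 arm (0.308%), miR-30c-1-5p, and the reverse held for 9 arms (2.77%). Without female_8wk replicate 2 these counts were 8 (2.46%) and 16 (4.92%). Differences below are log2 differences, 7 to 8 weeks minus 6 weeks, given with their SE in 1 order: over 11 libraries, without female_8wk replicate 2, and over 11 libraries with the library set as a term. The first pair carry the edgeR adjusted p; the last rests on female_7wk replicate 3 against female_6wk replicates 1 and 6, and no arm passed the test in it. Levels are CPM scaled by TMM factors. "Rose" and "fell" are used only for arms that passed the test without female_8wk replicate 2, and no such call was made over 11 libraries or with the set as a term.

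The muscle miRNA of the fetal myosin gene was lower in all older libraries. miR-208b-3p lies in an intron of Myh7 (chromosome 14, 54975710 to 54975731, GRCm38) and held 814 to 1343 CPM with a median of 1269.9 in the 6-week libraries. It held 569.5, 367 and 693 CPM in female_7wk replicates 1 to 3 and 548 and 172 CPM in female_8wk replicates 1 and 2. No library of 7 or 8 weeks reached the lowest one of 6 weeks. Its difference was -1.29 ± 0.319 (SE; adjusted p = 0.0769), and it fell without female_8wk replicate 2, with -1.05 ± 0.201 (adjusted p = 0.0289). The levels also followed the sets: female_6wk replicates 1 and 6 held 814 and 863 CPM, the other 6-week libraries 1252 or more, and within set 2 the difference was -0.27 ± 0.236, in the same direction and under 2 SE.

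Its relative miR-208a-3p, from an intron of the adult myosin gene Myh6 (chromosome 14, 54949072 to 54949093), held 874 to 1339.6 CPM with a median of 996 in the 6-week libraries. It held 606, 599.8 and 959 CPM in female_7wk replicates 1 to 3 and 743 and 167 CPM in female_8wk replicates 1 and 2. The groups overlapped, with differences of -0.74 ± 0.338 (SE; adjusted p = 0.185), -0.48 ± 0.156 (adjusted p = 0.0524) and 0.053 ± 0.211. miR-499-5p, from an intron of Myh7b (chromosome 2, 155622893 to 155622913), held 1090.1 to 1618 CPM with a median of 1379 in the 6-week libraries. It held 1092, 852 and 1509 CPM in female_7wk replicates 1 to 3 and 1249 and 288 CPM in female_8wk replicates 1 and 2. Its differences of -0.43 ± 0.328 (SE; adjusted p = 0.420), -0.17 ± 0.154 (adjusted p = 0.420) and 0.11 ± 0.241 did not pass the test either. Across the 13 tested arms of the heart muscle list, 6 were higher and 7 lower over 11 libraries, with a median of -0.18 against 0.06 over all arms tested. The low median was not seen without female_8wk replicate 2 (7 higher and 6 lower, median 0.00038) or with the set as a term (median 0.053). Without female_8wk replicate 2, 1 of the 13 rose, miR-133a-1-5p, and 4 fell: miR-208b-3p, miR-1a-1-3p, miR-133a-2-3p and miR-133b-3p. Over all arms tested in that fit, 10% were called higher and 8.44% lower. miR-1a-1-3p, which in muscle restrains growth and proliferation genes, held 2079.6 to 11448 CPM with a median of 5589.6 in the 6-week libraries. It held 2359, 1533 and 2681 CPM in female_7wk replicates 1 to 3 and 2238 and 659 CPM in female_8wk replicates 1 and 2. It fell at this locus, with differences of -1.60 ± 0.463 (SE; adjusted p = 0.0915), -1.35 ± 0.416 (adjusted p = 0.0470) and 0.11 ± 0.405, the last in the other direction. Summed over the 2 loci of its sequence, the difference without female_8wk replicate 2 was -1.11 ± 0.378 (adjusted p = 0.0616) and did not pass. miR-133a-2-3p was 182514 CPM in female_8wk replicate 2 and 54183 to 84367 CPM elsewhere, and its difference turned from 0.14 to -0.34 without it, and was -0.19 ± 0.163 with the set as a term. Its copy miR-133a-1-3p, not called, held 4706 to 12163 CPM in the 6-week libraries. The older values were 21115, 19394 and 4976 CPM in female_7wk replicates 1 to 3 and 22041 and 33156 CPM in female_8wk replicates 1 and 2. With 1 library left out in turn the difference of this copy was 1.10 to 1.62, and with the set as a term -0.073. Summed over the 2 loci of each sequence, neither miR-133a arm passed the test without female_8wk replicate 2. The difference was -0.17 ± 0.0882 (adjusted p = 0.174) for miR-133a-3p and 0.23 ± 0.120 (adjusted p = 0.177) for miR-133a-5p. miR-133b-3p and miR-133a-1-5p were chosen after their values were seen.

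**Figure D3:**
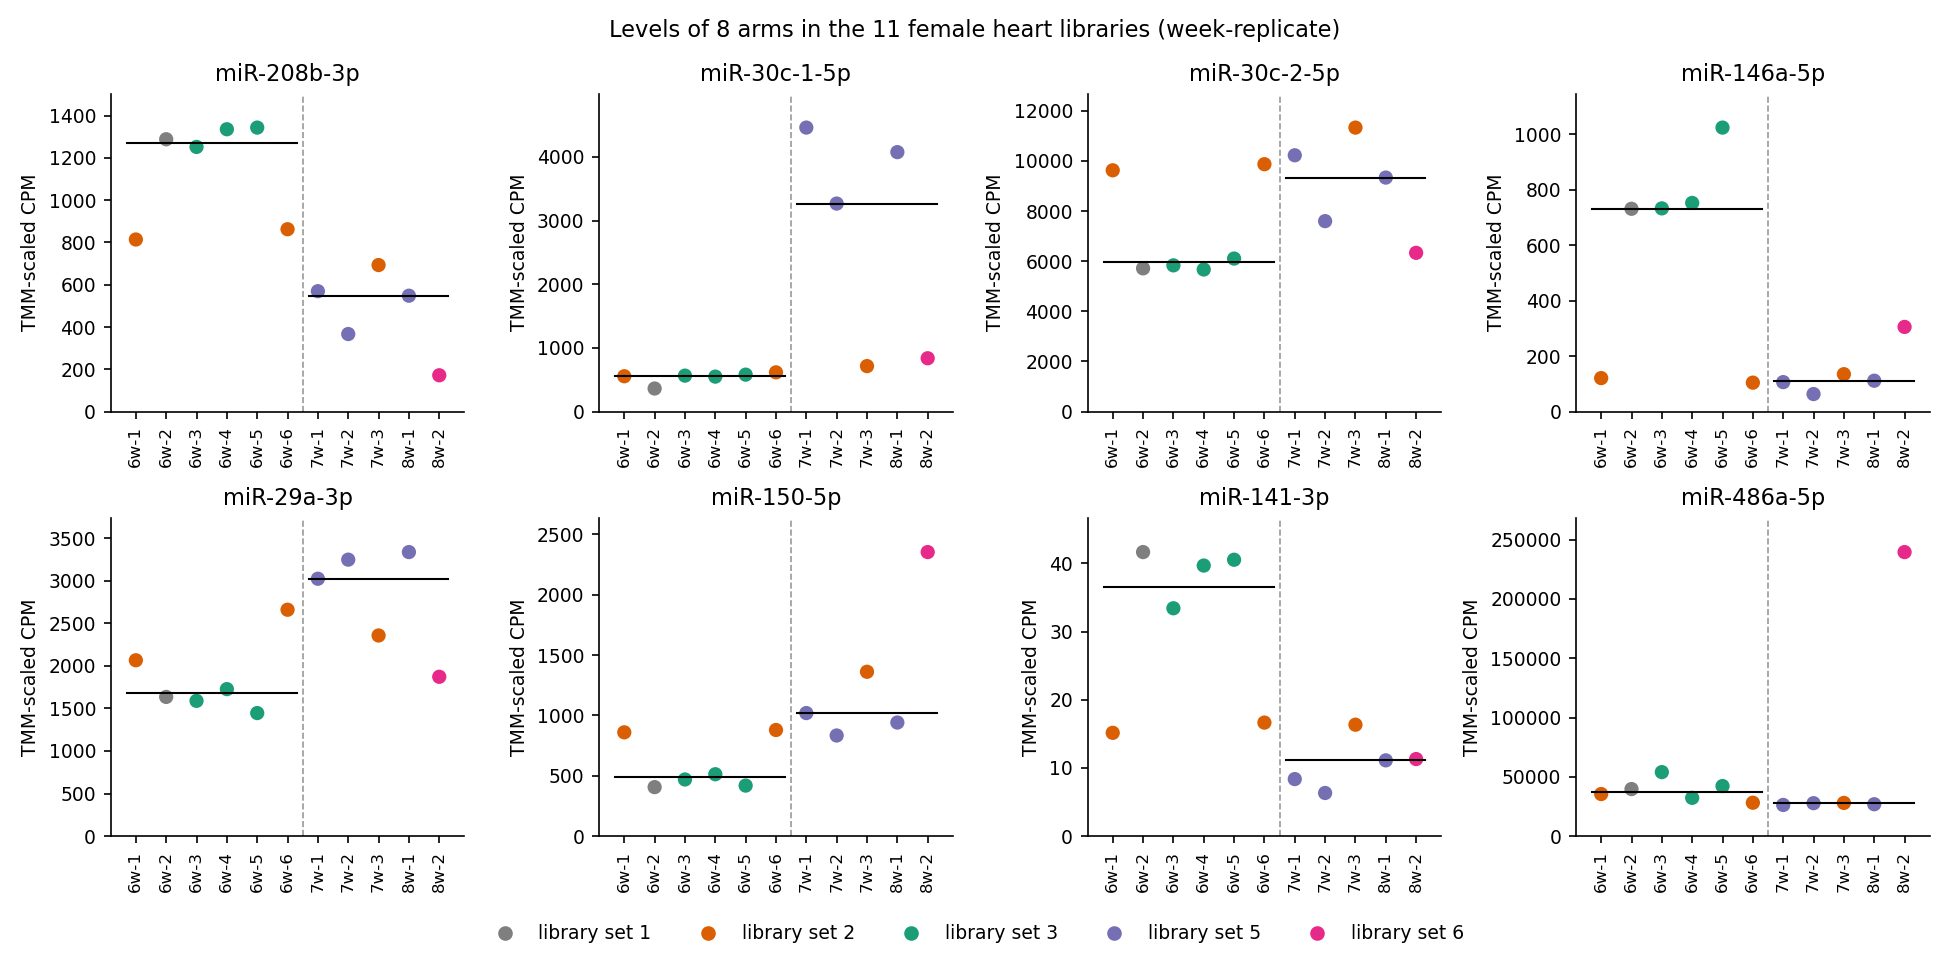
TMM-scaled CPM of 8 arms (vertical axes, starting at 0) in the 11 libraries (horizontal axes, week and replicate; the dashed line divides the ages). Points are libraries coloured by set and horizontal lines are group medians. miR-208b-3p is at 693 CPM or less in every older library and at 814 or more at 6 weeks, while miR-146a-5p, miR-150-5p and miR-141-3p in female_6wk replicates 1 and 6 lie nearer the older libraries than the other 6-week ones.

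Several of the smallest p-values belonged to single loci of sequences that are made at several. miR-30c-1-5p, a miR-30 family arm from an intron of Nfyc (chromosome 4, 120769584 to 120769606), held 363 to 616 CPM with a median of 560.2 in the 6-week libraries. It held 4461, 3268 and 715 CPM in female_7wk replicates 1 to 3 and 4075 and 838 CPM in female_8wk replicates 1 and 2. The 3 libraries of set 5 were high and the other 2 older libraries lay just above the 6-week range. It rose, with differences of 2.31 ± 0.455 (SE; adjusted p = 0.0769), 2.58 ± 0.397 (adjusted p = 0.0165) and 0.29 ± 0.176. Summed with its copy miR-30c-2-5p (chromosome 1, 23291714 to 23291736), which has the same sequence, the difference without that library was 0.71 ± 0.184 (adjusted p = 0.0532).

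miR-16-1-5p, from an intron of Dleu2 (chromosome 14, 61631936 to 61631957) and a repressor of cell cycle genes, held 183 to 409.7 CPM with a median of 293 in the 6-week libraries. It held 1791, 1618 and 286 CPM in female_7wk replicates 1 to 3 and 1833 and 353 CPM in female_8wk replicates 1 and 2. It rose, with differences of 1.99 ± 0.489 (SE; adjusted p = 0.0769), 2.26 ± 0.441 (adjusted p = 0.0289) and 0.31 ± 0.133, while without female_8wk replicate 2 the sum over both miR-16 loci differed by 0.42 ± 0.129 (adjusted p = 0.0532). let-7a-1-5p (chromosome 13, 48538239 to 48538260), of the growth-restraining let-7 family, rose, with 1.06 ± 0.349 (SE; adjusted p = 0.0933), 1.29 ± 0.296 (adjusted p = 0.0376) and -0.009 ± 0.153, and summed with let-7a-2-5p the difference without that library was 0.021 ± 0.0935 (adjusted p = 0.881). miR-26a-1-5p, from an intron of Ctdspl (chromosome 9, 119031811 to 119031832), rose, with 0.50 ± 0.190 (SE; adjusted p = 0.119), 0.64 ± 0.152 (adjusted p = 0.0376) and -0.028 ± 0.129, and its sum without that library differed by -0.034 ± 0.0796 (adjusted p = 0.769). let-7a-1-5p was chosen after its values were seen. The shares of these loci were among the values that defined the sets.

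For miR-92a-3p, from the clusters named after miR-17 and miR-92, the share moved little, with 91.8% to 95.1% given to the miR-92a-1 locus. The mean level was higher at 7 to 8 weeks for both loci. miR-92a-1-3p held 2019 to 3408 CPM with a median of 2277 in the 6-week libraries. It held 3987, 3641 and 3297 CPM in female_7wk replicates 1 to 3 and 3816 and 6723 CPM in female_8wk replicates 1 and 2. It rose without female_8wk replicate 2, and its values were 0.75 ± 0.230 (SE; adjusted p = 0.0915), 0.56 ± 0.172 (adjusted p = 0.0470) and -0.008 ± 0.127, the last near 0 and in the other direction. The older libraries lay above the 6-week median in every case, but female_7wk replicate 3 lay between female_6wk replicates 1 and 6. Its copy miR-92a-2-3p on chromosome X rose, with 0.94 ± 0.219 (SE; adjusted p = 0.0769), 0.75 ± 0.161 (adjusted p = 0.0370) and 0.16 ± 0.175, and without female_8wk replicate 2 the sum differed by 0.52 ± 0.158 (adjusted p = 0.0532).

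Of the 320 arms tested without female_8wk replicate 2, 56 belonged to sequences counted at several tested loci, and 14 of these were called, 10 higher and 4 lower. Of the remaining 264 arms, 45 were called, 22 higher and 23 lower. When counts were summed over the loci of each sequence, edgeR called 0 of 290 sequences (0%) over 11 libraries, with 75 at an unadjusted p under 0.05, and DESeq2 called 52 and limma-voom 0. Without female_8wk replicate 2 it called 0 of 285, with 108 at an unadjusted p under 0.05 and a smallest adjusted p of 0.0530.

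**Figure D4:**
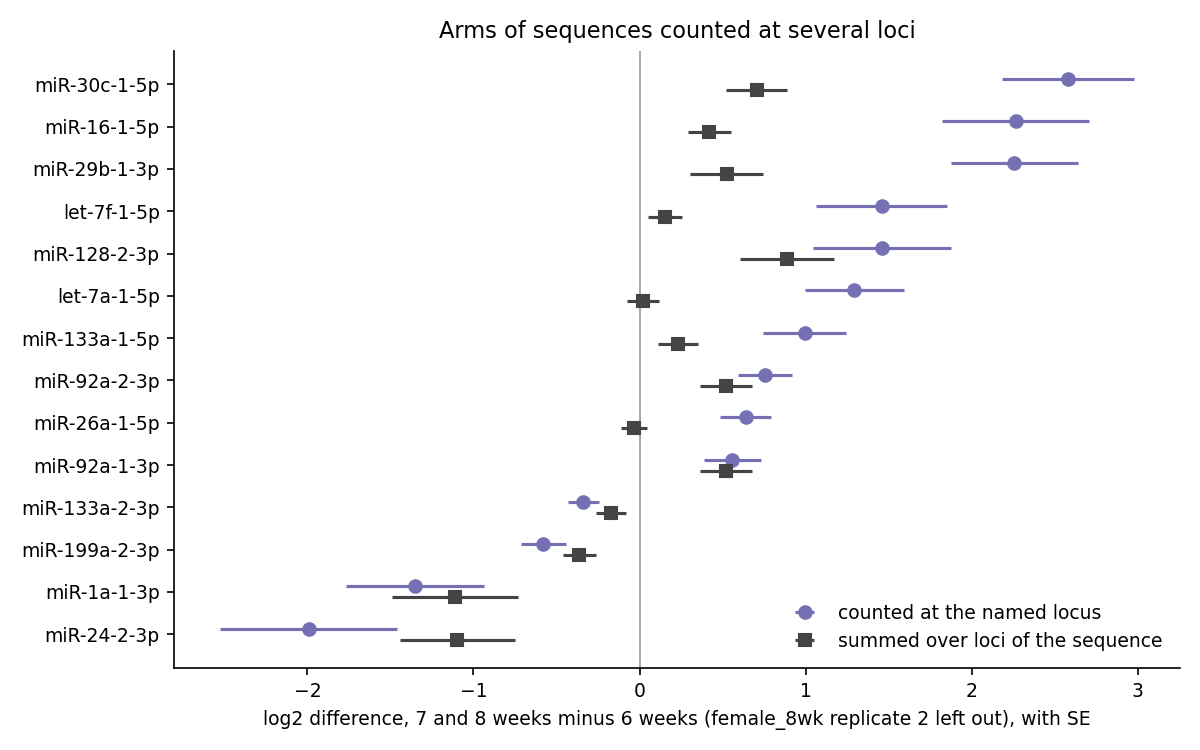
The log2 difference (horizontal axis, 7 and 8 weeks minus 6 weeks, female_8wk replicate 2 left out, bars are SE) of the 14 arms that passed the test and whose sequence was counted at several loci (vertical axis). Circles are counts at the named locus and squares are counts summed over all loci of the sequence. let-7a-1-5p stands at 1.29 and its sum at 0.021, while miR-92a-1-3p and its sum lie at 0.56 and 0.52.

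The miR-29 family, whose known targets include collagen and other matrix genes, was higher in its 6 tested arms, with a median of 0.42 over 11 libraries. Without female_8wk replicate 2 the median was 0.59 and 4 arms rose, none of them passing the test with all libraries. In that fit 10% of all arms tested were called higher. With the library set as a term the median was 0.36. miR-29a-3p (chromosome 6, 31062673 to 31062694) held 1446 to 2659.8 CPM with a median of 1681 in the 6-week libraries. It held 3024, 3248 and 2357 CPM in female_7wk replicates 1 to 3 and 3337 and 1872 CPM in female_8wk replicates 1 and 2. It rose without female_8wk replicate 2, with 0.58 ± 0.213 (SE; adjusted p = 0.112), 0.72 ± 0.184 (adjusted p = 0.0376) and -0.0037 ± 0.173 in the 3 fits, the last near 0. The 3 libraries of set 5 were above every 6-week library, whereas female_7wk replicate 3 and female_8wk replicate 2 were inside the 6-week range. The other arm of this hairpin, miR-29a-5p, rose as well, at a mean of 13.5 CPM. Its difference was 0.38 over 11 libraries and 0.59 ± 0.159 (SE; adjusted p = 0.0425) without female_8wk replicate 2. With the set as a term it was 0.74 ± 0.217, in the same direction. miR-29c-3p (chromosome 1, 195037600 to 195037621) held 368 to 684 CPM with a median of 421 in the 6-week libraries. It held 679, 606 and 661 CPM in female_7wk replicates 1 to 3 and 767 and 151 CPM in female_8wk replicates 1 and 2. It rose, and its differences were 0.32 ± 0.342 (SE; adjusted p = 0.586), 0.60 ± 0.174 (adjusted p = 0.0435) and 0.18 ± 0.219. miR-29b-1-3p, chosen after its values were seen, rose at its locus, with 2.03 ± 0.432 (SE; adjusted p = 0.0769), 2.26 ± 0.384 (adjusted p = 0.0192) and 0.54 ± 0.423, though at 2.10 to 23.3 CPM it was near the filter. Summed with its copy at the miR-29b-2 locus, the difference without female_8wk replicate 2 was 0.53 ± 0.220 (adjusted p = 0.107).

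The miR-146 pair, which dampens NF-κB signalling through Traf6 and Irak1, split the 6-week libraries. miR-146a-5p (chromosome 11, 43374435 to 43374456) held 104 to 1024 CPM with a median of 732 in the 6-week libraries. It held 106, 63.3 and 135 CPM in female_7wk replicates 1 to 3 and 111 and 305 CPM in female_8wk replicates 1 and 2. It was 121 and 104 CPM in female_6wk replicates 1 and 6 and 731 CPM or more in the other 4, so the low values of the older libraries were also met at 6 weeks. The difference was -2.01 ± 0.631 (SE; adjusted p = 0.0915) over 11 libraries, and it fell, with -2.44 ± 0.644 (adjusted p = 0.0422) without female_8wk replicate 2, while with the library set as a term it was 0.26 ± 0.332. miR-146b-5p, from an intron of Mfsd13a (chromosome 19, 46342790 to 46342811), had -2.07 ± 0.669 (SE; adjusted p = 0.0933), -2.43 ± 0.708 (adjusted p = 0.0435) and 0.58 ± 0.282 in the same order.

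Other arms showed this division. miR-141-3p, an epithelial miRNA of the miR-200 family (chromosome 6, 124717917 to 124717938, in an exon of Gm29008), held 15.2 to 41.7 CPM with a median of 36.6 in the 6-week libraries. It held 8.37, 6.33 and 16.3 CPM in female_7wk replicates 1 to 3 and 11.1 and 11.3 CPM in female_8wk replicates 1 and 2. Its difference was -1.54 ± 0.345 (SE; adjusted p = 0.0769) and -1.53 ± 0.361 (adjusted p = 0.0376), and 0.035 ± 0.280 with the set term; female_6wk replicates 1 and 6 were at 15.2 and 16.7 CPM. miR-150-5p, a miRNA of mature lymphocytes (chromosome 7, 45121762 to 45121783), held 406 to 879 CPM with a median of 491 in the 6-week libraries. It held 1019, 833 and 1361 CPM in female_7wk replicates 1 to 3 and 941 and 2353 CPM in female_8wk replicates 1 and 2. It rose, with 1.14 ± 0.322 (SE; adjusted p = 0.0915) and 0.84 ± 0.260 (adjusted p = 0.0476), and within set 2 female_7wk replicate 3 was again above both 6-week libraries, 0.65 ± 0.156. miR-222-3p (chromosome X, 19146903 to 19146923), known as a repressor of the cell cycle inhibitor p27, held 38.1 to 76.9 CPM with a median of 43.0 in the 6-week libraries. It held 101, 102 and 79.3 CPM in female_7wk replicates 1 to 3 and 72.4 and 113 CPM in female_8wk replicates 1 and 2, and differed by 0.84 ± 0.233 (SE; adjusted p = 0.0915), 0.80 ± 0.242 (adjusted p = 0.0461) and 0.10 ± 0.214. Its cluster partner miR-221-3p, which has the same seed, differed by 0.12 ± 0.124 (SE; adjusted p = 0.584), 0.15 ± 0.0942 (adjusted p = 0.259) and 0.013 ± 0.138.

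Other leading values belonged to arms that were far higher in 1 library. miR-378a-3p and miR-378a-5p, both from Ppargc1b, a regulator of mitochondria, differed by 2.11 ± 0.756 (SE; adjusted p = 0.102) and 1.96 ± 0.671 (SE; adjusted p = 0.0965) over 11 libraries and by -0.19 ± 1.44 and 0.27 ± 1.41 with the set as a term; miR-378a-3p was 642164 CPM in female_7wk replicate 2 and 33452 to 47374 CPM in the others. Without the libraries in which 1 arm exceeded 40%, the difference of miR-378a-3p was 0.23 ± 0.160 (adjusted p = 0.388). miR-378c, a sequence close to miR-378a-3p, held 595.7 CPM there and 23.2 to 88.9 CPM elsewhere. miR-143-3p differed by -1.50 ± 0.504 (SE; adjusted p = 0.0957), -1.33 ± 0.530 (adjusted p = 0.0890) and -1.81 ± 0.848, with 561914 CPM in female_6wk replicate 1; without those libraries the difference was -0.80 ± 0.269 (adjusted p = 0.110). In the other 6-week libraries it ran from 89778 to 127087 CPM, and at 7 to 8 weeks from 33128 to 93015 CPM. Within set 2, female_7wk replicate 3 held 93015 CPM, against 561914 and 89778 CPM in female_6wk replicates 1 and 6. The value with the set as a term therefore rests on the high value of female_6wk replicate 1. The predicted miRNA Gm23935-5p was 758.9 CPM in female_8wk replicate 2 and 1.72 to 40.5 CPM in the rest. Among red blood cell miRNAs, miR-486a-5p held 28154 to 53964 CPM with a median of 37571 in the 6-week libraries. It held 26273, 27775 and 27988 CPM in female_7wk replicates 1 to 3 and 26886 and 239549 CPM in female_8wk replicates 1 and 2. The difference of 0.85 ± 0.598 (SE; adjusted p = 0.384) became -0.47 ± 0.165 (adjusted p = 0.0669) without female_8wk replicate 2 and was -0.18 ± 0.283 with the set as a term. miR-486a and miR-486b lie on opposite strands of 1 locus, and how reads divide between them is uncertain. The arm miR-451a-5p, cut by Ago2 and abundant in the same cells, held 2029.7 to 3922 CPM with a median of 2718 in the 6-week libraries. It held 3896, 4779.8 and 2212 CPM in female_7wk replicates 1 to 3 and 4329 and 2188 CPM in female_8wk replicates 1 and 2. It did not share the high value of female_8wk replicate 2.

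Beside miR-208b-3p, 8 arms were lower in every older library than in every 6-week one. They were miR-542-3p and miR-322-3p, neighbours on chromosome X, miR-300-3p and miR-381-3p of the Dlk1-Dio3 imprinted cluster, miR-27b-3p, miR-199a-2-3p, miR-106b-5p and miR-148a-5p; 6 of them, all but miR-27b-3p and miR-199a-2-3p, were chosen after their values were seen. miR-322-3p (chromosome X, 53054269 to 53054289) held 199 to 299.5 CPM with a median of 250.4 in the 6-week libraries. It held 161, 153 and 179 CPM in female_7wk replicates 1 to 3 and 177 and 83.6 CPM in female_8wk replicates 1 and 2. It fell, with -0.70 ± 0.211 (SE; adjusted p = 0.0915), -0.52 ± 0.128 (adjusted p = 0.0376) and -0.18 ± 0.145. miR-27b-3p (chromosome 13, 63300760 to 63300780), among the 10 most abundant arms, held 38404 to 55247 CPM with a median of 48549 in the 6-week libraries. It held 34910.2, 35439.7 and 38025 CPM in female_7wk replicates 1 to 3 and 37789 and 21636 CPM in female_8wk replicates 1 and 2. It did not pass the test in any of the 3 fits, -0.48 ± 0.196 (SE; adjusted p = 0.144), -0.33 ± 0.118 (adjusted p = 0.0669) and -0.034 ± 0.143. miR-199a-2-3p, of the fibroblast and matrix list and in an exon of Dnm3os, fell, with -0.79 ± 0.250 (SE; adjusted p = 0.0915), -0.58 ± 0.135 (adjusted p = 0.0376) and -0.077 ± 0.124, and summed over the 3 loci of its sequence the difference without female_8wk replicate 2 was -0.36 ± 0.0980 (adjusted p = 0.0532). Within set 2 the gap could be small: miR-322-3p was 179 CPM against 206 and 199.

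The most abundant arm, miR-22-3p, is known from hypertrophic hearts. At its locus (chromosome 11, 75463772 to 75463793, an exon of Tlcd2) it held 133890.0 to 165357 CPM with a median of 143205 in the 6-week libraries. It held 207228, 177006 and 159637 CPM in female_7wk replicates 1 to 3 and 210561 and 127953 CPM in female_8wk replicates 1 and 2. It rose, with log2 values of 0.28 ± 0.180 (SE; adjusted p = 0.346), 0.41 ± 0.112 (adjusted p = 0.0435) and 0.038 ± 0.177. miR-148b-3p, from an intron of Copz1 and sharing its seed with miR-148a-3p and miR-152-3p, held 513 to 893 CPM with a median of 784 in the 6-week libraries. It held 425, 340.0 and 499 CPM in female_7wk replicates 1 to 3 and 397 and 708 CPM in female_8wk replicates 1 and 2. It fell, with log2 values of -0.61 ± 0.228 (SE; adjusted p = 0.114), -0.77 ± 0.174 (adjusted p = 0.0376) and -0.092 ± 0.147. Of the endothelial pair, miR-126a-3p (chromosome 2, 26591402 to 26591423) held 5881 to 9254 CPM with a median of 6572 in the 6-week libraries. It held 10232, 8764 and 10655 CPM in female_7wk replicates 1 to 3 and 10279.6 and 2912 CPM in female_8wk replicates 1 and 2. It rose without female_8wk replicate 2, with 0.27 ± 0.297 (SE; adjusted p = 0.603), 0.52 ± 0.148 (adjusted p = 0.0435) and 0.28 ± 0.164, and at 8 weeks alone the difference was -0.074 ± 0.433 (adjusted p = 0.921). miR-126a-5p of the same hairpin differed by -0.39 ± 0.261 (SE; adjusted p = 0.375), -0.17 ± 0.151 (adjusted p = 0.402) and 0.31 ± 0.175. miR-21a-5p, known to rise in stressed and fibrotic hearts, was 337 CPM in female_8wk replicate 2 and 1924 to 3106 CPM in the other libraries, and its differences were 0.10 ± 0.410 (SE; adjusted p = 0.905), 0.41 ± 0.129 (adjusted p = 0.0476) and -0.12 ± 0.111. miR-126a, miR-21a-5p and miR-29c-3p were among the arms whose value in that library lay far below the rest.

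Lists of miRNAs showed no call with all libraries. Medians are given in the same order of 3 fits; over all arms they were 0.06, 0.031 and 0.051. Counts of higher or lower arms are over 11 libraries, where 175 of all 325 arms were higher and 150 lower. Calls are those without female_8wk replicate 2, where 10% of arms were called higher and 8.44% lower. Of the 26 lists, 7 had a median of the other sign without that library and 16 with the set as a term. In the Dlk1-Dio3 imprinted cluster (chromosome 12, 109563710 to 109743784), 13 of 16 tested arms were lower, with medians of -0.30, -0.25 and -0.09. Of these arms, 4 fell without female_8wk replicate 2, among them miR-379-5p (chosen after its values were seen), with -1.71 ± 0.404 (SE; adjusted p = 0.0769), -1.54 ± 0.386 (adjusted p = 0.0376) and -0.059 ± 0.311, and miR-127-3p, with -0.53 ± 0.324 (SE; adjusted p = 0.320), -0.84 ± 0.252 (adjusted p = 0.0461) and 0.15 ± 0.128. In the miR-148 and miR-152 list 5 of 6 arms were lower (medians -0.43, -0.27 and -0.049, 2 fell), and in the miR-23, miR-27 and miR-24 list 7 of 10 (medians -0.37, -0.29 and 0.18, 1 fell). In the miR-30 family 9 of 12 arms were higher (medians 0.32, 0.30 and -0.06, 2 rose), and in the miR-17 to miR-92 clusters 10 of 14 (medians 0.12, 0.25 and -0.046, 2 rose and 2 fell). The let-7 family had 9 of 24 arms higher (medians -0.039, -0.05 and 0.022), and the 3 that rose were let-7a-1-5p, let-7f-1-5p and let-7c-1-3p, of which the last is no shared sequence. In the hypertrophy and stress list 13 of 30 arms were higher (medians -0.24, -0.20 and 0.021), with 2 that rose and 4 that fell, and of 38 arms on chromosome X 21 were higher (medians 0.056, 0.057 and 0.11), with 5 that rose and 4 that fell.

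Marker lists of other cells are given in the same way. White blood cell arms were higher in 2 of 5 (medians -0.0029, 0.12 and 0.06), where miR-150-5p rose and miR-223-3p fell. Endothelial arms were higher in 1 of 2 (medians -0.06, 0.17 and 0.29; 1 rose) and smooth muscle arms in 1 of 4 (medians -0.91, -0.73 and -0.91, no call). The last smooth muscle median has female_6wk replicate 1 in it, where miR-143-3p took 43.6% of counts. Of the fibroblast and matrix arms, 6 of 10 were higher (medians 0.10, -0.071 and 0.078; 1 rose and 1 fell), and of the fat tissue arms 4 of 7 (medians 0.14, 0.15 and 0.42; 1 rose). In the epithelial and lung list 0 of 5 arms were higher over 11 libraries but 3 of 4 without female_8wk replicate 2 (medians -0.11, 0.051 and 0.035), where miR-141-3p fell. In the brain list 4 of 4 were higher (medians 0.41, 0.63 and -0.013; miR-128-2-3p rose). Red blood cell arms were higher in 5 of 7 over 11 libraries and in 3 of 7 without female_8wk replicate 2 (medians 0.30, -0.17 and -0.25), where 1 arm rose.

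Among the other families, 6 of 13 arms were higher for miR-15 and miR-16 (medians -0.016, -0.016 and 0.011; 2 rose, 1 fell), 6 of 11 for miR-99, miR-100 and miR-125 (medians 0.047, -0.083 and 0.12, no call) and 3 of 4 for miR-26 (medians 0.23, 0.42 and 0.12; 1 rose). For miR-181 they were 7 of 9 (medians 0.087, 0.019 and -0.11, no call), for miR-146 0 of 2 (medians -2.04, -2.43 and 0.42; 2 fell), for miR-221 and miR-222 3 of 3 (medians 0.16, 0.32 and 0.10; 1 rose) and for miR-212 and miR-132 1 of 4 (medians -0.32, -0.23 and 0.024, no call). The miR-378 family was higher in 5 of 5 (medians 2.11, 2.41 and -0.054). The 2 of these that rose, miR-378c and miR-378b (the latter chosen after its values were seen), were far higher in female_7wk replicate 2 than elsewhere: miR-378b held 222 CPM there and 8.29 to 20.1 CPM in the other libraries. Without female_8wk replicate 2 and the libraries with 1 arm over 40%, miR-378c differed by 0.42 ± 0.239 (adjusted p = 0.209) and miR-378b by 0.40 ± 0.234 (adjusted p = 0.217). Differences of medians from that of all arms were not tested.

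With the library set as a term, the age difference rests on female_7wk replicate 3 against female_6wk replicates 1 and 6, and edgeR called 0 of 325 arms (0%), with 28 at an unadjusted p under 0.05. Neither DESeq2 nor limma-voom was run with that term. Of the 59 arms called without female_8wk replicate 2, 37 kept their direction and 7 had an unadjusted p under 0.05; of all 320 arms tested without that library, 170 kept the direction they had there. Among the 59 arms, female_7wk replicate 3 was within the range of the 6-week libraries for 34 (57.6%), against 7 (11.9%), 9 (15.3%) and 8 (13.6%) for female_7wk replicates 1 and 2 and female_8wk replicate 1. Over all 320 arms the 4 shares were 74.1%, 54.7%, 50.6% and 56.6% in the same order. For 45 of the 59 (76.3%, against 55.0% of all 320), female_6wk replicates 1 and 6 both lay past the other 4 libraries of their age towards the older ones. These shares describe arms that were called on the same values, and the part of the set in the difference between ages was otherwise not tested.

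**Figure D5:**
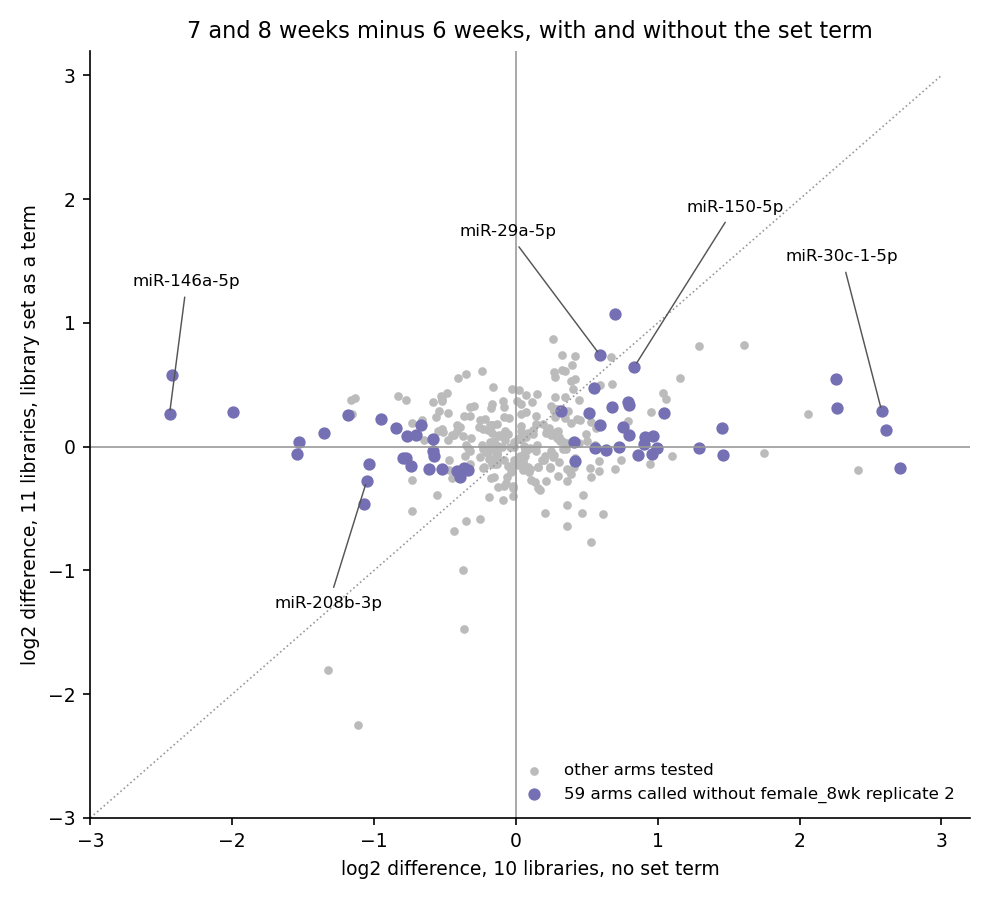
The log2 difference of each arm, 7 and 8 weeks minus 6 weeks, without female_8wk replicate 2 and with no set term (horizontal axis) against the same difference over 11 libraries with the library set as a term (vertical axis); the dotted line marks equal values. Dark points are the 59 arms called without female_8wk replicate 2. They spread from -2.44 to 2.71 along the horizontal axis and from -0.46 to 1.07 along the vertical.

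Whether the change from 6 to 7 to 8 weeks differed between females and males was tested in 28 libraries as a sex by age term. edgeR called 0 of 346 arms (0%), with 48 at an unadjusted p under 0.05, and DESeq2 and limma-voom also called 0. With the library set as a term it called 0 as well, with 97 at an unadjusted p under 0.05. The older class was mostly of 7 weeks in females and mostly of 8 weeks in males, so this term joins unlike ages. With 8 weeks alone against 6, edgeR called 6 arms for the term, with a smallest adjusted p of 0.00556. In females that fit rests on female_8wk replicates 1 and 2. In males alone, 23 of 342 arms (6.73%) were called, 18 of them higher. That fit had no set term, and the part of the library set in the male differences was not tested. miR-208b-3p differed by -0.81 ± 0.159 (adjusted p = 0.00931) in males, and the difference between the sexes was -0.44 ± 0.315 (unadjusted p = 0.172, adjusted p = 0.497). miR-29a-3p differed by 0.67 ± 0.147 (adjusted p = 0.0125) in males, with -0.044 ± 0.251 (unadjusted p = 0.862, adjusted p = 0.963) for the term. miR-146a-5p had -0.59 ± 0.735 (adjusted p = 0.680) and -1.37 ± 1.01 (unadjusted p = 0.187, adjusted p = 0.527), and miR-150-5p 0.62 ± 0.227 (adjusted p = 0.128) and 0.57 ± 0.398 (unadjusted p = 0.164, adjusted p = 0.494). The largest such terms with a small p among named arms were those of miR-378a-3p, 2.06 ± 0.675 (unadjusted p = 0.00509, adjusted p = 0.243), with the high value of female_7wk replicate 2 in it, and of miR-199a-2-3p, -0.66 ± 0.221 (unadjusted p = 0.00615, adjusted p = 0.243).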

How the data were processed

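Whole-number counts per mature miRNA arm were deposited by the authors, 1 file per library. Adapters were ligated with a TruSeq small RNA kit, per the labels. Counts are reads, not molecules, and intervals cover counting error only. The build was GRCm38 per the submitters' processing notes, which also name DESeq and edgeR without a role or version; the aligner, the annotation and the rule for multi-locus reads are not given in the sources used. Of 1684 features, 1138 matched a RefSeq mature miRNA (284 of the 325 tested arms). Of the 1684, 185 carry an antisense tag in the deposited names and were named after the miRNA of the other strand where there is one (miR-378a-3p and miR-486b-5p among them); they held 6.96% to 50% of counts. Strand treatment by the authors is not stated. miR-122 is not reported here.

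Members and lists were chosen with earlier results of these data known. Arms reaching 5 CPM in at least 5 fitted libraries were tested with edgeR 4.0.16 (R 4.3.3, TMM factors, quasi-likelihood F-test, Benjamini-Hochberg over all arms, called under 0.05), tested beforehand on simulated data. DESeq2 1.42.0 and limma 3.58.1 (voom) were alternatives, as were other scalings, filters, ages, left-out libraries, a replicate block and a library set term. SE is the absolute log2 difference over the root of F. Sums are over arms with the same RefSeq sequence or the same bases 3 to 20. Shares in 1 library carry 95% Wilson intervals; those of locus shares were at most 13.4 percentage points wide in female_8wk replicate 2 and 4.99 in the others. Named arms were the 10 most abundant, the 10 smallest p-values at a mean of at least 20 CPM (no arm was called), all arms of miR-29a, miR-29c, miR-126a, miR-208a, miR-208b, miR-451a and miR-499, and the 2 most abundant tested arms of each list, 64 in all; the report does not describe each of them. No pair of libraries of 1 group agreed within sampling noise (19 pairs, chi-square per degree of freedom at least 184).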

Additional observations from a re-analysis of the deposited data

Results flagged for a closer look

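Within the groups of 6 libraries at 6 weeks and 5 at 7 to 8 weeks, 180 sets of values (64 named arms and 26 list shares in either group) were examined for a library far from the others of its group by Dixon's criterion, and 37 values stood out. For normal values, chance alone would mark about 1 in 20 such sets. The sets share libraries, overlap between arms and lists, and include arms named for small p-values. The 37 can therefore not be weighed against that rate. Of the 37, 20 belonged to female_8wk replicate 2, the library with the lowest total count.

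In female_8wk replicate 2 the values far above the other older libraries were Gm23935-5p (759 CPM), miR-92a-1-3p (6723 CPM), miR-146b-5p (97.2 CPM), miR-127-3p (2244 CPM), miR-486b-5p (303090.0 CPM), miR-181a-2-5p (16549 CPM), miR-486a-5p (239549 CPM), miR-30d-5p (46502 CPM), miR-181a-1-5p (19767 CPM) and miR-133a-2-3p (182514 CPM). The values far below them were miR-27b-3p (21636 CPM), miR-128-1-3p (107 CPM), miR-30a-5p (14804 CPM), miR-126a-5p (12491 CPM), miR-148a-3p (3895 CPM), let-7f-2-5p (1312 CPM), miR-29c-3p (151 CPM), miR-126a-3p (2912 CPM) and miR-34c-5p (6.03 CPM). By share of counts, its red blood cell list stood out at 40.5%. Whether its low depth has a part in these values was not tested.

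In female_7wk replicate 2 the high values were miR-378c (596 CPM), miR-378a-5p (4785 CPM) and miR-378a-3p (642164 CPM), and the miR-378 family took 46.8% of its counts. In female_6wk replicate 1 miR-143-3p was high at 561914 CPM and the smooth muscle list took 43.7% of counts, while low shares of counts were those of the fibroblast and matrix list (0.466%) and of the list of miR-23, miR-27 and miR-24 (3.42%). In female_6wk replicate 6 high values were miR-22-3p (165357 CPM) and miR-29c-3p (684 CPM), and by share of counts the lists miR-29 family (0.423%), brain (0.0395%), miR-17 to miR-92 clusters (0.711%) and miR-378 family (4.97%). Single values were also far from their group for miR-30c-1-5p in female_6wk replicate 2 (363 CPM, low), miR-208a-3p in female_6wk replicate 4 (1339.6 CPM, high) and miR-30a-5p in female_6wk replicate 5 (29581 CPM, low). No arm was called for a difference between the sexes in the change with age.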

How the results depend on the processing

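In the comparison of 7 and 8 with 6 weeks, 0 arms were called under limma-voom, relative log expression factors, library totals alone, a stricter filter (20 CPM), 7 weeks alone, the library set as a term, the sets that hold both ages, without the libraries in which 1 arm exceeded 40%, or with antisense features left out. DESeq2 called 66, no filter 24, 8 weeks alone 7 and a slope per week 16. Leaving out 1 library in turn gave 0 to 59 calls; the 59 are those without the library of lowest total. With that library left out as well, DESeq2 called 117, limma-voom 44 and library totals alone 15, and without the libraries with 1 arm over 40% too, 80 were called (settings added after the data were seen). Summed over loci, DESeq2 called 52 and no filter 21, and leaving out 1 library gave 0 to 19, the 19 without female_6wk replicate 1; all other settings gave 0. For the sex by age term, 8 weeks alone gave 6 calls and all other settings 0. The differences in list shares between ages also changed when the top arm of each library, or the libraries with 1 arm over 40%, were left out. In percentage points and in that order, the miR-378 family went from 8.97 to -0.322 and 0.448. The smooth muscle list went from -10.8 to -2.98 and -5.09, and the red blood cell list from 4.72 to 1.21 and 6.25. Changes in the other lists were smaller. The cause of these changes was not tested.

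No pairing of samples by replicate number was visible between 6 weeks and 7 or 8 weeks. Over the 5 such pairs of 1 number, deviations correlated from -0.28 to 0.20. Over the 2 pairs at 7 and 8 weeks the correlations were 0.88 (replicates 1, both in set 5) and -0.57 (replicates 2). Deviations also followed the sets: female_6wk replicate 1 had 0.69 with replicate 6 of its set and -0.77 with replicate 4 of another. These correlations therefore cannot exclude a pairing. With the replicate number as a block 0 arms were called, with 20 at an unadjusted p under 0.05, and miR-21a-5p changed sign to -0.0163.

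Signs of log2 differences of named arms changed most with the set: 33 of 64 with the set as a term and 32 in the sets holding both ages. With the term (first value) and in those sets (second value), they were miR-1a-1-3p (0.11 and 0.0652), miR-378c (-0.17 and -0.22), miR-92a-1-3p (-0.00804 and -0.0580), miR-133a-1-3p (-0.0726 and -0.12), miR-146a-5p (0.26 and 0.21), miR-146b-5p (0.58 and 0.53), miR-378a-3p (-0.19 and -0.25), miR-29a-3p (-0.00365 and -0.0501), miR-26a-1-5p (-0.0284 and -0.0799), miR-208a-3p (0.0528 and 0.00377), miR-335-3p (0.43 and 0.39), miR-99b-5p (0.29 and 0.24), miR-127-3p (0.15 and 0.10), miR-486b-5p (-0.0793 and -0.13), miR-181a-2-5p (-0.17 and -0.22), miR-322-5p (0.13 and 0.0775), miR-212-5p (0.32 and 0.27), miR-126a-5p (0.31 and 0.26), miR-25-3p (-0.27 and -0.33), miR-486a-5p (-0.18 and -0.24), miR-499-5p (0.11 and 0.0668), miR-26a-2-5p (0.14 and 0.0855), miR-30d-5p (-0.000671 and -0.0527), miR-411-5p (0.12 and 0.0741), miR-451a-5p (-0.53 and -0.59), let-7f-2-5p (0.0507 and 0.00390), miR-181a-1-5p (-0.00546 and -0.0583), miR-133a-2-3p (-0.19 and -0.24), miR-335-5p (0.42 and 0.37) and miR-21a-5p (-0.12 and -0.17). With the term alone, miR-141-3p 0.0355, let-7a-2-5p 0.00941 and miR-148a-3p 0.0464 changed sign, and in those sets alone, miR-22-3p -0.0107 and miR-221-3p -0.0365. Without the library of lowest total the changed values were miR-486b-5p -0.36, miR-486a-5p -0.47, miR-30d-5p -0.0135, miR-203-3p 0.0283, miR-181a-1-5p -0.0987, miR-133a-2-3p -0.34, miR-335-5p 0.15 and miR-34c-5p 0.17, and without the libraries with 1 arm over 40% as well, miR-378a-5p -0.20, miR-486b-5p -0.54, miR-486a-5p -0.57, miR-30d-5p -0.00251, miR-203-3p 0.0172, miR-181a-1-5p -0.16, miR-133a-2-3p -0.37, miR-335-5p 0.26 and miR-34c-5p 0.19. At 7 weeks alone they were miR-486b-5p -0.42, miR-486a-5p -0.49, miR-30d-5p -0.0487, miR-181a-1-5p -0.16, miR-133a-2-3p -0.36, miR-335-5p 0.0640 and miR-34c-5p 0.15, and at 8 weeks alone miR-126a-3p -0.0744, miR-16-2-5p -0.0127, miR-21a-5p -0.29 and miR-499-3p -0.47. Under limma-voom they were miR-133a-2-3p -0.0249, miR-21a-5p -0.27 and miR-499-3p -0.31, with library totals alone miR-133a-2-3p -0.0334, and as a slope per week miR-21a-5p -0.0640 and miR-499-3p -0.13. Leaving out 1 library in turn, the ranges that crossed 0 were miR-486b-5p -0.36 to 1.32, miR-486a-5p -0.47 to 1.10, miR-30d-5p -0.0135 to 0.47, miR-203-3p -0.17 to 0.0283, miR-181a-1-5p -0.0987 to 0.27, miR-133a-2-3p -0.34 to 0.29, miR-335-5p -0.24 to 0.15, miR-34c-5p -0.19 to 0.17, miR-21a-5p -0.0273 to 0.41 and miR-499-3p -0.25 to 0.35.

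With 1 locus counted apart from its copies, a called locus is no measure of the mature miRNA. Arms under 5 CPM are mostly untested, and female_8wk replicate 2 resolves levels only down to 1.68 CPM.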
